A study of Mus musculus with 24 samples.

Results

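The core loop of the circadian clock was followed in mouse hearts through 10 genes: the activators Arntl, Clock and Npas2, the repressors Per1, Per2, Per3, Cry1 and Cry2, and the nuclear receptors Nr1d1 and Nr1d2. They were chosen by name, as the textbook members of the loop, out of 23998 genes in the polyA expression table. All 10 were found there, and all 10 passed the filter on low values that left 12980 genes for testing. The hearts came from 13 mice of the CD1 background, and every mouse carried a transgene for human MYL2, the regulatory light chain of ventricular myosin. The wild-type group held 3 hearts with the normal human allele and control virus (replicates 2, 3 and 4). The remaining 10 hearts carried a mutated allele: 3 were untreated, with no virus (replicates 9, 10 and 11), 3 had control virus (replicates 1, 2 and 3) and 4 were labelled as treated with the M7.8L shRNA (replicates 5, 6, 7 and 8). The virus was an AAV9 vector given through the jugular vein at 3 days of age, the control virus carried no M7.8L shRNA, and all hearts were taken at 4 months. The sources used here do not give the promoter of the transgene, the number of lines behind each allele or the hour at which hearts were taken, so every difference below is a difference between hearts sampled at an unstated time of day.

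The mammalian clock is a transcriptional feedback loop that runs in most cells, heart muscle cells included. ARNTL (also called BMAL1) pairs with CLOCK or with its relative NPAS2 and switches on genes with E-box sequences, among them the Per and Cry genes and Nr1d1 and Nr1d2. PER and CRY proteins return to repress the activators, while the products of Nr1d1 and Nr1d2 (REV-ERB alpha and beta) repress Arntl, Npas2 and Clock through a separate element. As a result, Arntl and Npas2 transcripts run in antiphase to Nr1d1, Nr1d2 and the Per genes over the day, and the transcript of Clock swings less. In the heart the loop sets daily rhythms of metabolism, ion channels and growth.

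The elements named above can be read in the promoters of the members, which are shown because these elements define the branches of the loop described below. RefSeq promoter windows of 300 bases round each start site were available for 9 of the 10 members (mouse build GRCm38.p6); Per2 was not matched. A search on both strands for the E-box CACGTG, its variant CACGTT, the D-box TTATGNAA (bound by DBP, TEF, HLF and NFIL3) and a core of the REV-ERB element, AGTAGGTNA, gave the following matches, none of which overlapped another. Each run of 30 bases is printed 5′ to 3′ on the strand of its gene, with the match in capitals; where the capitals read AACGTG, the variant CACGTT lies on the opposite strand.
Arntl, REV-ERB element, chr7:113207493-113207522, plus strand: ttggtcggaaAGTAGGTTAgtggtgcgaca
Arntl, REV-ERB element, chr7:113207529-113207558, plus strand: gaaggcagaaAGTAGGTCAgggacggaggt
Per1, E-box, chr11:69098771-69098800, plus strand: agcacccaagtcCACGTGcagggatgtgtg
Per1, D-box, chr11:69098914-69098943, plus strand: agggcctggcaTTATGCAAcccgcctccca
Per3, D-box, chr4:151044805-151044834, minus strand: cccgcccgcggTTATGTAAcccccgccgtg
Per3, D-box, chr4:151044852-151044881, minus strand: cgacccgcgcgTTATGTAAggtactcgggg
Cry1, E-box, chr10:85185097-85185126, minus strand: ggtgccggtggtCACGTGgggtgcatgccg
Cry1, E-box variant, chr10:85185116-85185145, minus strand: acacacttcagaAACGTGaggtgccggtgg
Cry2, E-box variant, chr2:92434218-92434247, minus strand: acacatggtgggAACGTGagggggcggagc
Nr1d1, E-box variant, chr11:98775388-98775417, minus strand: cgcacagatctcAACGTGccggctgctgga
The Arntl matches begin 8 bases before and 28 bases after the start site, and the Per1 matches begin 166 and 24 bases before it. Those of Per3 begin 158 and 205 bases before the start, those of Cry1 60 and 79, that of Cry2 166 and that of Nr1d1 28 bases before it. Over all 32851 promoter windows of this length, 7.15% held CACGTG, 4.68% CACGTT, 3.38% TTATGNAA and 0.591% AGTAGGTNA. The windows of Clock, Npas2 and Nr1d2 held none of these letters, which says nothing about sites elsewhere in those genes.

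Values are FPKM (fragments scaled by transcript length and library size), so levels can be compared between genes, but the depth behind them is unknown and counting intervals are not given. Totals per library lay between 580948 and 1701499 FPKM, and the median log2 shift of a library lay between -0.54 in untreated mutant replicate 10 and 0.80 in shRNA replicate 8. Differences are therefore given as deposited and after division by that shift ("aligned"). Human MYL2 has a row of its own, hMyl2, which read 228.8, 419.6 and 317.2 FPKM in replicates 5, 6 and 7 of the hearts labelled shRNA. It was listed at 0 elsewhere, also in wild-type and untreated hearts that carried the transgene. This row therefore cannot be read as the level of the transgene or its knockdown, and the treatment is known from the labels alone. By Y-linked genes the control-virus mutants were all female, replicates 5 to 7 of the hearts labelled shRNA were male and replicate 8 was female, while the wild-type and untreated groups each held 2 males and 1 female. Replicate 8 stood apart from the other hearts with its label in markers of 3 cell types as well. Summed aligned FPKM of 8 fibroblast markers was 2627 in it, 910.9 to 1194 in wild type, 2581 to 3105 in the mutants without shRNA and 987.4 to 1223 in the other hearts labelled shRNA. The sum of 8 macrophage markers ran likewise, at 1387 in replicate 8, 386.9 to 429 in wild type, 940 to 1532 in the mutants without shRNA and 341.2 to 448.8 in the other hearts labelled shRNA. Among these markers Cd163 ran the other way in control-virus mutants, at 2.91 to 6.61 aligned FPKM, beside 9.11 to 11.8 in wild type. Of 9 heart muscle markers the sum was 92860 to 104400 in wild type, 57810 to 65200 in the mutants without shRNA, 58080 in replicate 8 and 124300 to 137700 in replicates 5 to 7. The sum of 5 endothelial markers was 381.3 to 384.2 in wild type, 245.3 to 344.0 in the mutants without shRNA, 390.4 to 439.0 in replicates 5 to 7 and 363.1 in replicate 8, which here lay above the mutants without shRNA and below wild type. These sums differed between wild type and the mutants without shRNA, and between those mutants and replicates 5 to 7, as many clock genes did. In the heart muscle and endothelial sums, replicates 5 to 7 also lay above wild type. Of these defining markers only Myh6 was listed at 0 in some libraries, and none of the fibroblast, macrophage or endothelial markers was. The libraries were wild-type replicate 2, untreated replicate 11 and control-virus replicate 3, whose heart muscle sums therefore lack Myh6. Elsewhere Myh6 was 4162 to 13956 aligned FPKM. The part of cell makeup or sex in the results below was not tested except where a value is given. In whole hearts, fewer cells of a type and less RNA per cell cannot be told apart.

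Arntl, the activator without which the loop stops, was low in wild-type hearts and high in mutant hearts without shRNA. It was 1.14, 4.03 and 2.13 FPKM in wild type (2.43 ± 1.47, mean ± SD, n = 3), 18.1, 12.0 and 9.70 in untreated mutants (13.2 ± 4.32, n = 3) and 10.5, 11.2 and 7.95 in control-virus mutants (9.88 ± 1.70, n = 3). No library of either mutant group overlapped wild type. As deposited, 48.9% of all genes did not overlap wild type in untreated mutants and 42.1% in control-virus mutants, in either direction. For the shRNA label these shares were 31.2% against control-virus mutants, 43% against untreated mutants and 11% against wild type. These shares belong beside the statements below on groups that did not overlap. In the hearts labelled shRNA the Arntl values were 3.65, 8.59, 2.15 and 19.4 (8.45 ± 7.82, n = 4), or 4.80 ± 3.37 (n = 3) without replicate 8. As deposited, replicates 5 and 7 lay within the wild-type range, replicate 6 within that of control-virus mutants and replicate 8 above every other heart. Aligned, Arntl in replicates 5, 6 and 7 was 3.95, 5.99 and 1.72, beside 1.23 to 3.85 in wild type and 10.1 to 12.0 in control-virus mutants, so that replicates 5 and 6 lay between these groups. Replicate 8, the library with the highest shift, was then at 11.2, within the control-virus range and below the untreated mutants, at 13.4 to 19.1. Against wild type, Arntl rose in untreated mutants by 2.10 ± 0.50 (SE) on the log2(FPKM + 1) scale, or 4.28-fold (limma, adjusted p = 0.0076; aligned 2.46, adjusted p = 0.00579). In control-virus mutants it rose by 1.74 ± 0.50, or 3.34-fold (limma, adjusted p = 0.0365; aligned 1.88, adjusted p = 0.0144). As deposited, the second call was lost on leaving out any single library of those 6 (adjusted p from 0.0525 without wild-type replicate 3 to 0.15 without wild-type replicate 2). The added 1 shrinks these folds, since Arntl was near that size in wild type.

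Between the hearts labelled shRNA and the mutants, the Arntl call turned on replicate 8. With all 4 hearts, Arntl did not pass against control-virus mutants (limma, log2 difference -0.56 as deposited, adjusted p = 0.345; aligned -1.01, adjusted p = 0.0808). Without replicate 8 it fell by 1.05 as deposited (adjusted p = 0.0137) and by 1.36 aligned (adjusted p = 0.00359). Against untreated mutants it fell after alignment, by 1.59 (adjusted p = 0.0153) and without replicate 8 by 1.94 (adjusted p = 0.000292). As deposited that difference was -0.92 with all 4 hearts (adjusted p = 0.101) and -1.41 without replicate 8 (adjusted p = 0.0011).

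The partners of ARNTL moved less. Npas2, which can take the place of Clock, was the lowest of the 10 in every group. It was 0.83, 1.14 and 1.33 FPKM in wild type, 3.76, 1.89 and 1.59 in untreated mutants, 2.06, 2.80 and 1.43 in control-virus mutants and 1.52, 2.23, 1.78 and 2.88 in the hearts labelled shRNA. Every mutant library, shRNA or not, was above every wild-type library. As deposited Npas2 passed in no comparison, and after alignment it rose in untreated mutants by 0.92 ± 0.18 (limma, adjusted p = 0.0086) and in control-virus mutants by 0.64 ± 0.18 (adjusted p = 0.0263) against wild type. It fell by 0.60 with the shRNA label against untreated mutants after alignment (adjusted p = 0.0207, and 0.011 without replicate 8), where as deposited the difference was -0.10.

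Clock was 12.6, 11.4 and 14.5 FPKM in wild type, 21.6, 18.7 and 13.8 in untreated mutants, 15.1, 15.5 and 11.8 in control-virus mutants and 14.7, 18.4, 15.6 and 26.9 in the hearts labelled shRNA. As deposited the groups overlapped apart from wild type and the shRNA label, and Clock passed in no comparison. Aligned, it rose in untreated mutants by 0.81 ± 0.15 (limma, adjusted p = 0.00681) and did not pass in control-virus mutants (0.27, adjusted p = 0.191). For the shRNA label against untreated mutants the direction depended on the scaling: 0.05 as deposited (adjusted p = 0.867) and a fall of 0.65 aligned (adjusted p = 0.00848).

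**Figure D1:**
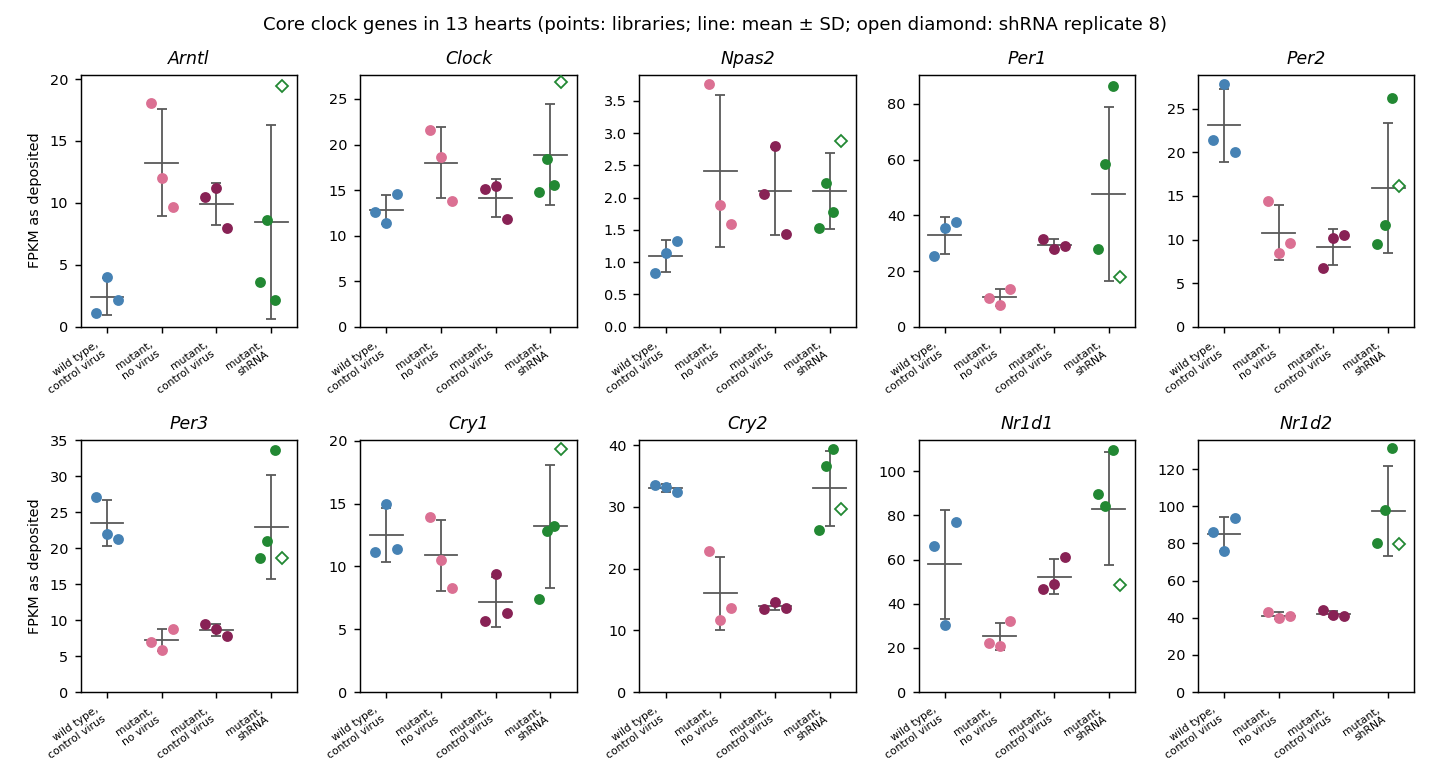
FPKM as deposited (linear axes from 0) of the 10 clock genes in wild-type hearts with control virus, mutant hearts with no virus, mutant hearts with control virus and hearts labelled shRNA; each point is 1 heart, lines and bars are the group mean ± SD, and the open diamond is shRNA replicate 8. Arntl is at 1.14 to 4.03 FPKM in wild type and at 7.95 to 18.1 in the mutants without shRNA, while Per3, Cry2 and Nr1d2 run the other way; replicate 8 holds the highest Arntl value as deposited, 19.4, which is 11.2 aligned and then below all 3 untreated mutants.

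The period genes were lower in mutant hearts without shRNA, with Per1 set apart by its high level under control virus. Per3, an output-like member of the family that is dispensable for the rhythm itself, separated the groups most evenly. It was 27.1, 22.0 and 21.3 FPKM in wild type (23.5 ± 3.17, n = 3), 6.96, 5.79 and 8.83 in untreated mutants (7.19 ± 1.54, n = 3), 9.46, 8.75 and 7.78 in control-virus mutants (8.67 ± 0.85, n = 3) and 18.6, 21.0, 33.7 and 18.7 in the hearts labelled shRNA (23.0 ± 7.20, n = 4). As deposited, no mutant library without shRNA reached the lowest value of the other groups. Aligned, Per3 in shRNA replicate 8 was 10.8, within the range of untreated mutants (7.35 to 12.2). Per3 fell by 1.59 ± 0.25 in untreated mutants, or 3.01-fold (limma, adjusted p = 0.00116; aligned by 1.25, adjusted p = 0.0131). It fell by 1.34 ± 0.25, or 2.53-fold, in control-virus mutants (adjusted p = 0.00656; aligned by 1.20, adjusted p = 0.0156). In hearts labelled shRNA it rose by 1.27 ± 0.24 against control-virus mutants (2.42-fold, adjusted p = 0.00122; aligned 0.79, adjusted p = 0.0452) and by 1.52 ± 0.24 against untreated mutants (2.88-fold, adjusted p = 0.000136; aligned 0.84, adjusted p = 0.0317). Per3 passed in these 4 comparisons under both scalings.

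Per2, whose protein is a main partner of the cryptochromes, was 21.4, 27.9 and 20.1 FPKM in wild type (23.1 ± 4.17, n = 3). It was 14.4, 8.41 and 9.55 in untreated and 6.75, 10.2 and 10.5 in control-virus mutants, both below every wild-type library, and 9.47, 11.7, 26.2 and 16.2 in the hearts labelled shRNA. Only replicate 7 with that label lay within the wild-type range. Per2 fell by 1.26 ± 0.32 in control-virus mutants (2.39-fold, limma, adjusted p = 0.0209; aligned by 1.12, adjusted p = 0.0198). In untreated mutants it fell by 1.05 ± 0.32 as deposited (2.07-fold, adjusted p = 0.0265) and did not pass aligned (-0.70, adjusted p = 0.0851). As deposited the control-virus call was lost without control-virus replicate 1 or 3 or any 1 wild-type heart (adjusted p = 0.0543 to 0.115), and the untreated call without untreated replicate 10 or 11 or any 1 wild-type heart (adjusted p = 0.0566 to 0.132). For the shRNA label Per2 passed against no group in the fits with all 4 hearts, nor without replicate 8; against control-virus mutants it passed without replicate 5 (0.86, adjusted p = 0.0204).

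Per1, an E-box gene that is also induced acutely by light, hormones and stress signals, was 25.3, 35.6 and 37.7 FPKM in wild type (32.9 ± 6.60, n = 3). As deposited, untreated mutants had 10.4, 7.66 and 13.6 (10.6 ± 3.00, n = 3), below every other heart. On that scale control-virus mutants had 31.5, 28.0 and 29.0 (29.5 ± 1.84, n = 3), inside the wild-type range. Aligned, Per1 in shRNA replicate 8 was 10.3, below all untreated mutants (10.9 to 18.9). The hearts labelled shRNA spanned the widest range of any group, at 27.9, 58.3, 86.6 and 17.9. Per1 fell in untreated mutants against wild type by 1.57 ± 0.41 as deposited (2.96-fold, limma, adjusted p = 0.0126); aligned, the difference was -1.21 (adjusted p = 0.0815, and 0.00368 without shRNA replicate 8 in the shared spread). As deposited this call was lost without untreated replicate 10 (adjusted p = 0.0777) or wild-type replicate 4 (adjusted p = 0.0547). For the shRNA label, it rose against untreated mutants by 1.86 ± 0.38 (3.63-fold, adjusted p = 0.000922; aligned 1.16, adjusted p = 0.0706, and 1.66 without replicate 8, adjusted p = 0.000281). Against control-virus mutants it passed only as deposited without replicate 8 (0.80, adjusted p = 0.034).

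The cryptochromes, the strongest repressors of the loop, did not move alike. Cry2 was 33.6, 33.3 and 32.3 FPKM in wild type (33.1 ± 0.65, n = 3), 22.8, 11.6 and 13.6 in untreated mutants (16.0 ± 5.95, n = 3), 13.4, 14.5 and 13.6 in control-virus mutants (13.9 ± 0.62, n = 3) and 26.3, 36.6, 39.4 and 29.7 in the hearts labelled shRNA (33.0 ± 6.03, n = 4). All mutant values without shRNA lay below all values of the other groups. Cry2 fell by 1.20 ± 0.25 in control-virus mutants (2.29-fold, limma, adjusted p = 0.00974; aligned by 1.05, adjusted p = 0.00813) and by 1.06 ± 0.25 in untreated mutants (2.08-fold, adjusted p = 0.007; aligned by 0.70, adjusted p = 0.0267). As deposited these calls were lost without control-virus replicate 1 (adjusted p = 0.0551) and without untreated replicate 10 (adjusted p = 0.0546). With the shRNA label it rose by 1.18 ± 0.23 against control-virus mutants (2.26-fold, adjusted p = 0.00162; aligned 0.69, adjusted p = 0.0247). Against untreated mutants it rose by 1.04 ± 0.23 as deposited (adjusted p = 0.00164), and by 0.33 aligned without passing (adjusted p = 0.188), or 0.51 without replicate 8 (adjusted p = 0.00891).

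Cry1, whose daily peak comes later than that of the Per genes, was 11.2, 15.0 and 11.4 FPKM in wild type and 13.9, 10.5 and 8.24 in untreated mutants. It was 5.68, 9.41 and 6.32 in control-virus mutants, all below wild type, and 7.38, 12.8, 13.2 and 19.4 in the hearts labelled shRNA. In untreated mutants Cry1 overlapped wild type and did not pass. In control-virus mutants it fell by 0.61 ± 0.16 aligned (1.53-fold, limma, adjusted p = 0.0219), where as deposited the difference was -0.75 (adjusted p = 0.125, and 0.0356 without shRNA replicate 8 in the shared spread). In hearts labelled shRNA it rose against control-virus mutants as deposited by 0.76 (adjusted p = 0.0448) and did not pass aligned (0.29, adjusted p = 0.163). That call was lost without control-virus replicate 1 or 3 or shRNA replicate 6, 7 or 8 (adjusted p = 0.0781 to 0.174). Against untreated mutants the sign turned with the scaling: 0.22 as deposited (adjusted p = 0.522) and a fall of 0.47 aligned (adjusted p = 0.0357).

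Nr1d1 and Nr1d2, the repressors of Arntl, had the highest levels of the 10 genes in every group. Nr1d2 was 86.4, 75.7 and 94.0 FPKM in wild type (85.3 ± 9.17, n = 3), 43.0, 39.7 and 40.9 in untreated mutants (41.2 ± 1.70, n = 3), 44.2, 41.4 and 40.8 in control-virus mutants (42.1 ± 1.79, n = 3) and 80.5, 98.1, 131.2 and 79.8 in the hearts labelled shRNA (97.4 ± 24.1, n = 4). As deposited, the 6 mutant hearts without shRNA lay between 39.7 and 44.2 FPKM and below all the others. Aligned, Nr1d2 in shRNA replicate 8 was 46.0, within the range of untreated mutants (45.4 to 57.6). Nr1d2 fell by 1.00 ± 0.22 in control-virus mutants (2.00-fold, limma, adjusted p = 0.0136; aligned by 0.85, adjusted p = 0.0298). In untreated mutants it fell by 1.03 ± 0.22 as deposited (2.04-fold, adjusted p = 0.00478); aligned, the difference was -0.65 (adjusted p = 0.067, and 0.00794 without shRNA replicate 8 in the shared spread). As deposited the control-virus call was lost without control-virus replicate 1 or 3 or wild-type replicate 2 or 4 (adjusted p = 0.0534 to 0.0676). For the shRNA label, it rose by 1.16 ± 0.21 against control-virus mutants (2.24-fold, adjusted p = 0.00108) and by 1.19 ± 0.21 against untreated mutants (2.29-fold, adjusted p = 0.000288). Aligned these were 0.66 and 0.46, neither passing (adjusted p = 0.0544 and 0.143), and without replicate 8 0.88 and 0.68, both passing (adjusted p = 0.000905 and 0.00456).

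Nr1d1 did not follow its relative under control virus. It was 66.3, 30.2 and 77.0 FPKM in wild type (57.8 ± 24.5, n = 3), 22.4, 20.8 and 32.3 in untreated mutants (25.2 ± 6.24, n = 3), 46.9, 48.8 and 61.2 in control-virus mutants (52.3 ± 7.76, n = 3) and 89.7, 84.5, 109.7 and 48.4 in the hearts labelled shRNA (83.0 ± 25.6, n = 4). Control-virus mutants lay inside the wild-type range, and the low wild-type value was that of replicate 3, the wild-type heart with the most Arntl. Nr1d1 fell in untreated mutants as deposited by 1.09 ± 0.34 (2.13-fold, limma, adjusted p = 0.0294) and did not pass aligned (-0.72, adjusted p = 0.249). As deposited the call was lost without untreated replicate 9 or 10 or wild-type replicate 2 or 4 (adjusted p = 0.0651 to 0.156). With the shRNA label it rose against untreated mutants by 1.65 ± 0.31 (3.14-fold, adjusted p = 0.000516; aligned 0.93, adjusted p = 0.115, and 1.30 without replicate 8, adjusted p = 0.00705). Against control-virus mutants it passed only as deposited without replicate 8 (0.84, adjusted p = 0.019). Nr1d1 overlaps Thra, a thyroid hormone receptor gene, in the RefSeq annotation. The sources used here do not say whether counting used strand, so reads of the overlap cannot be told apart. Thra was 64.9, 62.8 and 72.9 FPKM in wild type, 58.1, 36.4 and 49.5 in untreated mutants, 58.8, 53.9 and 58.7 in control-virus mutants and 91.6, 110.0, 106.8 and 89.8 in the hearts labelled shRNA, and did not share the low Nr1d1 value of wild-type replicate 3.

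Within a group the order of the 10 levels differed between wild type and mutants. In wild type it ran Nr1d2, Nr1d1, Cry2, Per1, Per3, Per2, Clock, Cry1, Arntl and Npas2, from 85.3 down to 1.10 FPKM. Neighbours in that order overlapped in their library ranges except at 2 steps, from Per2 to Clock and from Cry1 to Arntl. In untreated mutants Arntl stood above Cry1, Per2 and Per1, whose ranges overlapped its own, and above Per3 without overlap (9.70 to 18.1 against 5.79 to 8.83 FPKM). In control-virus mutants Nr1d1 was above Nr1d2 and Nr1d2 above Per1, each without overlap with the next gene, and Arntl again stood above Per2, Per3 and Cry1, with overlap. In the hearts labelled shRNA every neighbouring pair overlapped, and the order began with Nr1d2, Nr1d1, Per1, Cry2 and Per3.

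Control-virus mutants against wild type, with the same vector in both, is the comparison of the alleles. As deposited, 1 of the 10 members rose (Arntl), where 2.15% of all 12980 genes did, and 4 fell (Per2, Per3, Cry2 and Nr1d2), where 7.35% did. Aligned, 2 rose and 5 fell, with Npas2 and Cry1 added, against 12.6% and 11.7% of all genes. Without shRNA replicate 8 in the shared spread the aligned counts were again 2 and 5, against 19.8% and 19.9%. The median difference of the members was -0.44 as deposited and -0.30 aligned, beside -0.14 and -0.01 for all genes. Sex was uneven between these groups. With sex as a covariate Per3 alone passed as deposited (limma, adjusted p = 0.0419), where 0.971% of all genes did. Aligned, with sex as a covariate and without shRNA replicate 8, 2 members rose and 3 fell, against 13.6% and 14% of all genes.

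Untreated mutants against the same wild-type hearts differ in allele and in virus together. As deposited, Arntl rose (1 member, with 1.54% of all genes called upward) and 6 fell, namely Per1, Per2, Per3, Cry2, Nr1d1 and Nr1d2 (19.2% of all genes downward). Aligned, 3 rose, which are Arntl, Clock and Npas2 (12.0% of all genes), and 2 fell, Per3 and Cry2 (13.8%). Without shRNA replicate 8 in the shared spread the aligned counts were 3 and 4, with Per1 and Nr1d2 added, against 18.9% and 20.8%. The median of the members was -1.04 as deposited and -0.68 aligned, beside -0.33 and 0.01 for all genes. Both comparisons use the same 3 wild-type hearts, so their likeness is no independent support.

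Control-virus and untreated mutants, which differ in the virus and in sex, were not separated by limma for any of the 10 members (0.0% of all genes passed in either direction, under both scalings). At an unadjusted p under 0.05 there were 2 members as deposited, beside 4.41% of all genes, and 3 aligned, beside 9.98%. Per1 and Nr1d1, the 2 members whose ranges did not overlap as deposited, were higher with control virus. As deposited, 15.1% of all genes did not overlap. Aligned, Per1 was again above, Arntl, Clock and Cry1 were below without overlap, and Nr1d1 overlapped. On that scale 20.6% of all genes did not overlap. The log2 differences of Per1 and Nr1d1 as deposited were 1.43 and 1.04 (limma, adjusted p = 0.771 for both). Both passed when the 2 groups were fitted alone by limma (adjusted p = 3.02e-05 and 0.0137). In that fit 1.09% of all genes rose and 0.262% fell.

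The shRNA label against control virus in mutants was the comparison of treatment. As deposited 4 members rose, Per3, Cry1, Cry2 and Nr1d2 (33.4% of all genes), and 0 fell (1.66%). Aligned, 2 rose, Per3 and Cry2 (11.9% of all genes), and 0 fell (12.2%). Without replicate 8, 5 rose as deposited (30.4%) and Arntl fell (8.94%), and aligned 3 rose, Per3, Cry2 and Nr1d2 (24.3%), and Arntl fell (23.8%). The median of the members was 0.63 as deposited and 0.15 aligned, beside 0.47 and 0.00 for all genes. Sex moved with the label, with 3 males and 1 female against 3 females.

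Against untreated mutants, where virus and shRNA differ together, 5 members rose as deposited: Per1, Per3, Cry2, Nr1d1 and Nr1d2 (53.6% of all genes rose, and 1.21% fell, with 0 members). Aligned, Per3 rose (16.0% of all genes) and Arntl, Clock, Npas2 and Cry1 fell (13.1%). Without replicate 8 the aligned counts were 5 up and 4 down, so that 9 of the 10 members passed, against 25.3% and 24.1% of all genes; as deposited they were 5 up (46.6%) and 1 down (6.22%). The 5 that rose aligned were Per1, Per3, Cry2, Nr1d1 and Nr1d2, and the 4 that fell were the 3 activators and Cry1.

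Between the hearts labelled shRNA and wild type, 0 of the 10 members passed limma, where 0.108% of all genes rose and 0.0% fell as deposited, 0.0308% and 0.0539% aligned, and 3.15% and 2.47% aligned without replicate 8. At an unadjusted p under 0.05 there was 1 member as deposited (15.6% of all genes), 1 aligned (11.7%) and 2 aligned without replicate 8 (22.2%), shares of members close to those of all genes. The nearest was Per2, at -0.93 ± 0.27 aligned (adjusted p = 0.206) and -0.84 without replicate 8 (adjusted p = 0.0951). A difference that did not pass is not shown to be absent.

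**Figure D2:**
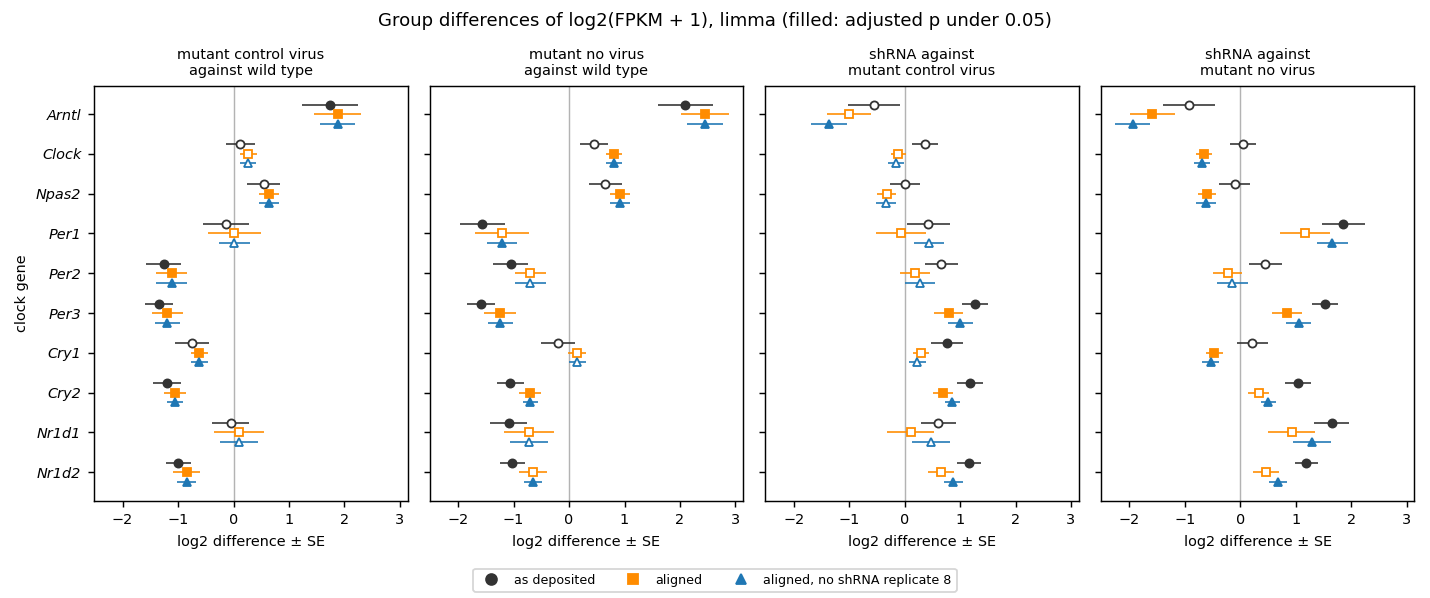
Log2 differences ± SE of log2(FPKM + 1) for the 10 clock genes in 4 comparisons, from limma as deposited (circles), aligned (squares) and aligned without shRNA replicate 8 (triangles); filled symbols have an adjusted p under 0.05. Against wild type Arntl lies at 1.74 to 2.46 and Per3 at -1.59 to -1.20 in every fit shown, and in the panels with the shRNA label every square (aligned) lies to the left of its circle (as deposited).

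Because the hour of sampling is unknown, pairs of genes in antiphase were read within each heart, where the scale of the library nearly cancels. The log2 ratio of Arntl to Nr1d1 was -4.97, -2.63 and -4.64 in wild type, -0.29, -0.75 and -1.64 in untreated mutants and -2.06, -2.03 and -2.80 in control-virus mutants. In the hearts labelled shRNA it was -4.29, -3.16 and -5.14 in replicates 5, 6 and 7 and -1.27 in replicate 8. Untreated mutants thus lay above every heart of wild type and of the control-virus group, control-virus mutants overlapped wild-type replicate 3, and replicate 8 lay among the untreated mutants.

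The ratios to Per2 and Per3 divided the hearts more sharply. Per1 was not paired, so these ratios do not cover all Per genes. As deposited, Per1 lay inside the wild-type range in control-virus mutants and below it in untreated mutants. Arntl to Per3 ran from -3.71 to -2.19 in wild type, from 0.12 to 1.26 in untreated mutants and from 0.03 to 0.32 in control-virus mutants. The values with the shRNA label were -2.08, -1.20, -3.46 and 0.05 for replicates 5 to 8. Arntl to Per2 ran from -3.38 to -2.52 in wild type, from 0.02 to 0.46 in untreated and from -0.36 to 0.57 in control-virus mutants, and was -1.17, -0.40, -3.11 and 0.25 with the label. In both, wild type and mutants without shRNA were more than 2 log2 units apart; shRNA replicate 7 lay in the wild-type range, replicates 5 and 6 between the groups, and replicate 8 with the mutants. Npas2 to Nr1d2 ran from -5.58 to -5.16 in wild type, from -4.01 to -3.21 in untreated and from -4.10 to -3.48 in control-virus mutants, and was -5.01, -4.94, -5.57 and -4.38 with the label.

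To set the movement apart beside the movement together, the aligned log2 difference of a pair, divided by 2, was compared with the mean of its aligned log2 levels over the 13 hearts. On this scale a gene that moves alone gives the same span in both. For Arntl and Per3 the difference divided by 2 spanned 2.51 and the mean 0.80. For Arntl and Nr1d1 the spans were 2.37 and 1.29, for Arntl and Per2 2.00 and 1.31, and for Npas2 and Nr1d2 1.20 and 0.52. The mean thus spanned less than the difference divided by 2 in all 4 pairs. This is a description of 4 pairs chosen for their known antiphase, without Per1, and no test is given. A shift of phase and a smaller swing can each move antiphase genes in opposite directions at a single unstated hour, so the 2 cannot be told apart from these hearts. The same limit holds within groups: wild-type replicate 3 and shRNA replicate 6 had more Arntl than the other hearts of their groups, replicate 8 aside, and the hour of each heart is unknown.

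**Figure D3:**
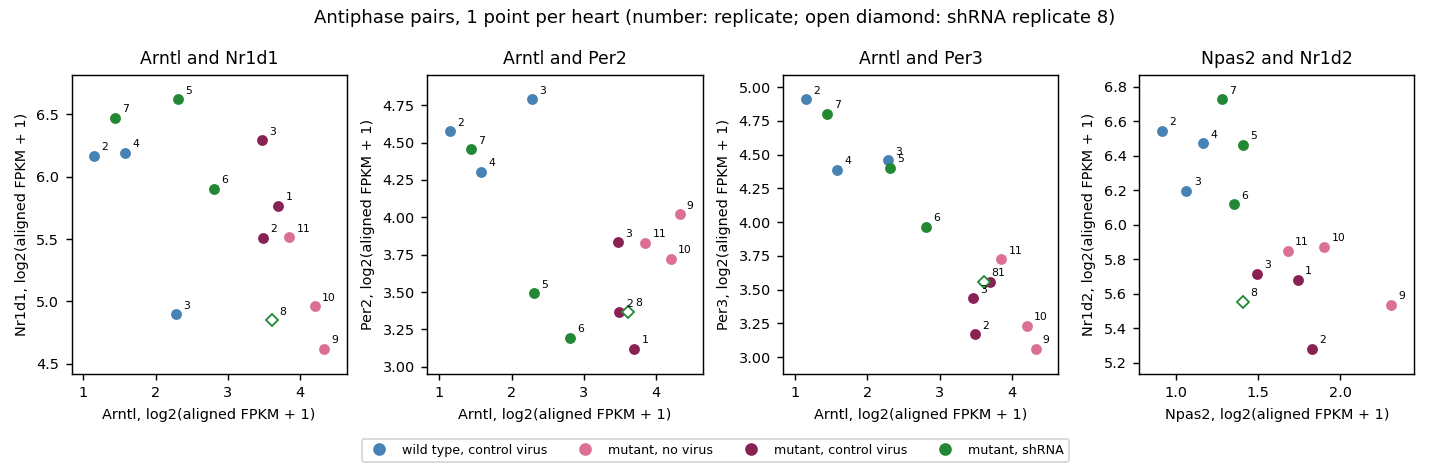
Each point is 1 heart, with its replicate number, at its log2(aligned FPKM + 1) of an activator (horizontal) and a repressor or Per gene (vertical), for 4 pairs; the axes do not start at 0. In the Arntl and Per3 panel hearts lie from upper left (wild type and shRNA replicates 5 to 7) to lower right (mutants without shRNA and replicate 8). In the Nr1d1 panel wild-type replicate 3 lies low and control-virus mutants are not below wild type (44.6 to 77.4 against 28.8 to 72.0 aligned FPKM), and on the Per2 axis shRNA replicates 5 and 6 lie among the mutants.

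Factors downstream of the loop and its regulators were read from lists of 7 and 21 genes. The output transcription factors include Dbp, Tef and Hlf, which bind the D-box as activators, and Nfil3, which represses through the same sequence. Of the 7, 0 rose and 4 fell in control-virus mutants against wild type under both scalings, where 7.35% of all genes fell as deposited and 11.7% aligned. In untreated mutants 0 rose and 5 fell as deposited (19.2% of all genes fell), and 1 rose and 3 fell aligned (12.0% and 13.8%). With the shRNA label 5 rose and 0 fell against either mutant group as deposited, where 33.4% of all genes rose against control virus and 53.6% against untreated mutants. Aligned, 2 rose and 0 fell against control virus (11.9% and 12.2% of all genes), and 3 rose and 2 fell against untreated mutants (16.0% and 13.1%). None passed in the other 2 comparisons under either scaling.

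Dbp, the classical direct target of the activators, was 134.0, 76.9 and 127.1 FPKM in wild type, 13.1, 6.39 and 16.2 in untreated mutants, 28.9, 23.3 and 27.9 in control-virus mutants and 124.7, 107.7, 260.5 and 46.3 in the hearts labelled shRNA. It was lower in each mutant group than in any heart of wild type, and lowest in untreated mutants. Dbp fell by 3.18 ± 0.45 (limma, adjusted p = 0.000684; aligned by 2.83, adjusted p = 0.0102) in untreated and by 2.00 ± 0.45 (adjusted p = 0.013; aligned by 1.85, adjusted p = 0.039) in control-virus mutants. In hearts labelled shRNA it rose by 3.23 ± 0.42 against untreated mutants (adjusted p = 7.38e-05; aligned 2.53, adjusted p = 0.00908) and by 2.05 ± 0.42 against control virus (adjusted p = 0.002; aligned 1.55, adjusted p = 0.0562).

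Tef was 151.6, 152.5 and 147.1 FPKM in wild type, 39.6 to 67.7 in untreated mutants, 50.8 to 57.1 in control-virus mutants and 107.7 to 190.1 with the shRNA label. Hlf was 17.3 to 21.5 in wild type, 4.92 to 5.46 and 5.05 to 5.77 in the mutant groups and 11.1 to 19.1 with the label. These are values as deposited. Aligned, shRNA replicate 8 lay within the range of untreated mutants, at 62.0 for Tef (57.5 to 71.5) and 6.37 for Hlf (5.77 to 7.28). Both passed in these 4 comparisons under both scalings, downward in the mutants and upward with the label. Nfil3, picked out here after its values were seen because its daily course runs with Arntl, was 14.9, 27.6 and 15.9 FPKM in wild type, 62.6, 37.3 and 22.7 in untreated mutants, 19.3, 24.7 and 15.7 in control-virus mutants and 16.4, 43.0, 16.8 and 38.4 with the shRNA label. It rose in untreated mutants only aligned (1.34, limma, adjusted p = 0.014; as deposited 0.97, adjusted p = 0.092). Its highest hearts within wild type and within the label were wild-type replicate 3 and shRNA replicates 6 and 8, the same hearts that were high in Arntl.

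Of the 21 regulators, which cover nuclear receptors, kinases, ubiquitin enzymes and further repressors, 19 could be tested, as Rorb and Arntl2 did not pass the filter. In control-virus mutants 0 rose and 3 fell as deposited (7.35% of all genes fell), and 1 rose and 3 fell aligned (12.6% and 11.7%); in untreated mutants the counts of regulators were the same, beside 19.2% of all genes downward as deposited and 12.0% and 13.8% aligned. With the shRNA label 9 of the 19 rose and 0 fell against control virus as deposited, where 33.4% of all genes rose, and 12 rose and 0 fell against untreated mutants, where 53.6% did. These counts lie close to the shares of all genes. Aligned, 4 rose and 1 fell (11.9% and 12.2% of all genes), and 3 rose and 2 fell (16.0% and 13.1%). Usp2, a deubiquitinase of clock proteins with a strong daily rhythm, was 118.2 to 122.7 FPKM in wild type, 31.5 to 61.9 in untreated and 37.0 to 53.5 in control-virus mutants, and 91.8 to 156.5 with the label. Aligned, Usp2 in shRNA replicate 8 was 53.2, within the range of untreated mutants (45.7 to 65.3). Usp2 passed in these 4 comparisons under both scalings.

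**Figure D4:**
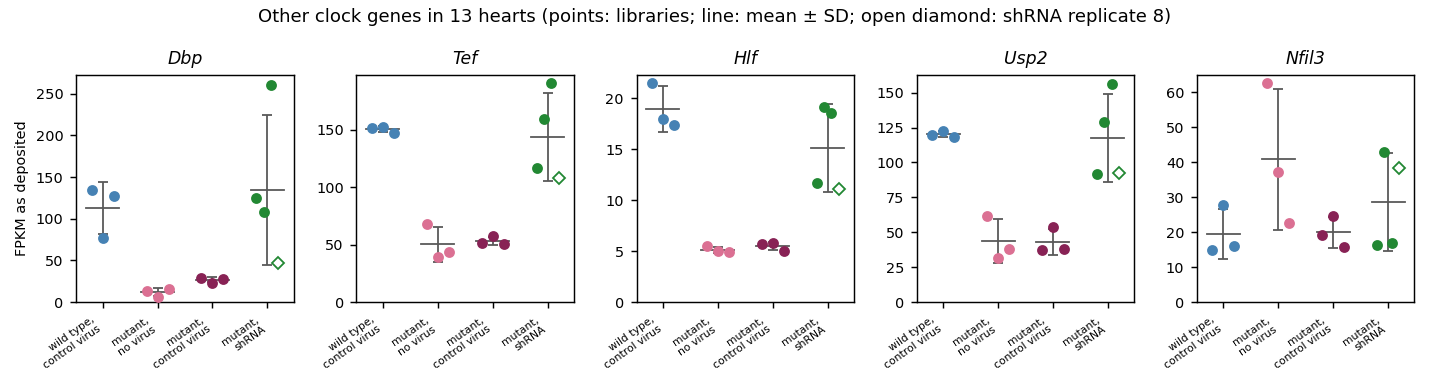
FPKM as deposited (linear axes from 0) of 3 D-box activators (Dbp, Tef, Hlf), of Usp2 and of the D-box repressor Nfil3 in the 4 groups; each point is 1 heart, lines and bars are the group mean ± SD, and the open diamond is shRNA replicate 8. Dbp lies at 6.39 to 28.9 FPKM in mutants without shRNA and at 76.9 to 134.0 in wild type, while Nfil3 is highest in untreated mutant replicate 9, at 62.6 FPKM.

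The genes whose pattern was most like that of Arntl were ranked by Pearson r over the 13 aligned libraries among the 9786 genes whose mean reached 5 FPKM. These libraries fall into groups and share their scaling, so r is a description and no test is given. The highest were Wls (0.955), Dcn (0.952), Tspyl5 (0.949), Phc2 (0.948) and Psmd5 (0.945), of which Dcn, coding for decorin, is also one of the fibroblast markers above. The lowest were Ttc7 (-0.961), Nhsl1 (-0.955), Per3 (-0.95), Dbp (-0.949) and Arl4d (-0.945), so 2 clock genes stood among the 5 that ran most nearly opposite to Arntl. Of the members, Npas2 (0.865) and Clock (0.741) ran with Arntl, Cry1 was at 0.052, and Nr1d2 (-0.876), Cry2 (-0.814), Per1 (-0.673), Nr1d1 (-0.645) and Per2 (-0.595) ran against it. For Nr1d1 the highest were Csrnp1 (0.875), D2Wsu81e (0.861), Emilin2 (0.853), Acvr1b (0.845) and Iscu (0.826), and the lowest Zfp36l1 and Elf1 (both -0.892), Vps4b (-0.879), Elavl1 (-0.869) and Ptplad1 (-0.866). Among the members Nr1d1 ran most closely with Per1 (0.765), the other member whose control-virus and untreated mutants did not overlap as deposited.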

How the data were processed

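PolyA RNA of 13 hearts, 1 library each, was used; the small RNA table was not analysed here. FPKM values were made and deposited by the authors. The submitters' processing notes name FastQC 0.11.2, STAR 2.40, Cufflinks 2.2.1, Cuffdiff and build mm9, with no role for each; the sources used here do not give strand, annotation or read depth. The labels' genotype field is the same for all samples, so the allele was taken from sample titles.

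Genes whose mean reached 1 FPKM were fitted as log2(FPKM + 1) in 1 model over 4 groups with limma 3.58.1 in R 4.3.3 (eBayes with trend, two-sided, Benjamini-Hochberg over 12980 genes, adjusted p under 0.05). Alignment divided each library by its median shift over 13875 genes above 0 in every library. Hearts were taken as male where Ddx3y exceeded 5 FPKM. The procedure was tested on simulated data. Alternatives were pseudocount, filters, scaling, sex, a replicate block, the compared groups alone and each library left out.

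All 10 members were named, other clock genes that passed with the 4 smallest p in a comparison, and the 5 genes with the highest and lowest r. A gene that this rule names is not reported here by name, and is included in the counts over its list. Members and lists were chosen with earlier results of these data known.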

Additional observations from a re-analysis of the deposited data

Results flagged for a closer look

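In the hearts labelled shRNA, the only group of 4, replicate 7 lay far from the other 3 in 2 of 24 values examined (the 10 genes on 2 scales, and 4 pair ratios). Its Per3 level was 33.67 FPKM as deposited, with a gap to the next heart of 0.844 of the group's whole range, and of 0.417 aligned. Its Per2 level was 20.96 FPKM after alignment, with a gap of 0.835, and of 0.6 as deposited. Each gene is past Dixon's limit for 4 samples on 1 of the 2 scales only, and chance passes that limit in about 1 in 20 groups.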

How the results depend on the processing

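For mutant against wild type under control virus, 5 members passed as deposited, where 9.5% of all genes did. There were 3 with no filter on low values (4.29% of all genes) and 1 with sex as a covariate (Per3, 0.971%). With the replicate number as a block there were 2 (1 up, 1 down, 6.14%). Leaving out 1 library of the groups compared gave 1 to 4 members (1.38% to 7.77%), with 1 without control-virus replicate 1 (1.38%). Without shRNA replicate 8, which enters the shared spread only, 6 passed (21.2%). The block rests on numbers 2 and 3, which the labels do not tie to shared animals or days. Deviations of same-numbered hearts from their group means had r of -0.196 and -0.107 over genes. For hearts of unlike number r was 0.17 and 0.027. These deviations hold the scale of each library, so they cannot decide whether the numbers pair the hearts. For untreated mutants against wild type 7 passed (20.7% of all genes), and 7 without shRNA replicate 8 (31%). With 1 library of these groups left out 3 to 6 passed (8.24% to 25.1%). There were 3 without untreated replicate 10 (8.24%) and 4 without wild-type replicate 4 (9.91%). For the shRNA label against control virus 4 passed (35% of all genes), 2 aligned (24.1%) and 2 after quantile normalization (24.5%). With 1 library left out 3 to 6 passed (15.8% to 55.2%). Against untreated mutants 5 passed (54.8% of all genes), 9 when aligned without shRNA replicate 8 (49.4%), and 9 with sex as a covariate as well (48.1%). Between control-virus and untreated mutants 0 passed (0% of all genes), and 2 with the 2 groups fitted alone (1.35%). The sign turned for the shRNA label against untreated mutants in Clock (-0.65 aligned, -0.70 aligned without replicate 8, -0.73 with sex as well, -0.63 by quantiles; -0.13 to 0.18 with 1 library left out), in Cry1 (-0.47, -0.54, -0.64 and -0.42 in the same order) and in Npas2 (-0.28 to 0.16 with 1 library left out). It also turned for Cry1 against control virus (-0.091 aligned with sex and without replicate 8). The cause was not tested, beyond the smaller number of samples when a library is left out. With 0.1 in place of 1 added before the ratio, 4 of the 24 pair differences moved beyond the spread between replicates, all away from 0. Depth is unknown, so what it limits cannot be given; Npas2, near 1 FPKM, is the member closest to the filter. Leaving out replicate 8 where it enters the shared spread alone was chosen after seeing the data.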
